A study of Mus musculus with 6 samples.

Results

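The histone cluster genes are the genes of the core histones H2A, H2B, H3 and H4 and of linker histone H1 that lie in arrays on 4 chromosomes. They were chosen by their symbols in RefSeq (Hist1h, Hist2h, Hist3h and Hist4h in the older naming, and H1f1 to H1f6, H2ac, H2bc, H3c and H4c in the newer naming, which is used below). Of 71 such genes, 69 had a curated transcript with a transcription start site (TSS) on mm10, out of 26180 genes in all, and these 69 are described here. H2ac14 and H2ac5-ps had no curated transcript and were not used. Cluster 1 on chromosome 13 held 55 of the genes, cluster 2 on chromosome 3 held 10, cluster 3 on chromosome 11 held 3, and cluster 4 on chromosome 6 held 1, H4f16 (Hist4h4). By type they were 6 H1, 19 H2A, 19 H2B, 12 H3 and 13 H4 genes, of which 67 were protein coding and 2, H2bu1-ps (Hist3h2bb) and H2af-ps2 (Hist1h2al), were transcribed pseudogenes.

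The data were chromatin immunoprecipitation with sequencing (ChIP-seq) of Lsd1, a histone demethylase, in C2C12 cells, a mouse myoblast line, on day 1 of differentiation. The study asked where Lsd1 bound in cells led towards muscle or towards fat, and whether raised Lsd1 changed that. Wild-type cells were kept in myogenic (2% horse serum) or adipogenic medium, LSD1(OE) cells only in the latter, and each of the 3 conditions gave 1 ChIP library and 1 input library. With 1 library per condition no value has a replicate, the intervals given cover counting error only, and every difference below is between single libraries. The adipogenic medium contained the hormones insulin (850 nM), T3 (1 nM) and dexamethasone (5 µM), the drugs rosiglitazone (1 µM) and indomethacin (125 nM), and isobutylmethylxanthine at 0.5 mM. LSD1(OE) is a stable line made with a lentivirus that carries Flag-tagged LSD1 behind a tetracycline-dependent promoter, selected with G418 and given doxycycline before and during differentiation. No such line is listed in myogenic medium, and wild-type cells are not described as receiving doxycycline, so the transgene, the selection and the drug cannot be told apart. The antibody bound the C-terminus of Lsd1 and was used in all 3 ChIPs, and it does not separate transgenic from endogenous protein. The filtered ChIP tags numbered 46155625 in the myogenic, 63915769 in the adipogenic and 55193310 in the LSD1(OE) library, with 43426, 18893 and 33533 called peaks. Peak lists carry no expression values, so the labelled cell type was not checked against markers, and bulk ChIP cannot separate how many cells had Lsd1 at a site from how much each cell had.

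Core histones form the protein spool of the nucleosome, linker histone H1 binds the DNA that enters and leaves it, and Lsd1 acts on nucleosomes by removing methyl groups from a lysine of the H3 tail. Most cluster genes are short, have no introns and are expressed in S phase, when new DNA has to be packaged, and their mRNAs end in a stem-loop in place of a poly(A) tail. The H2A and H2B genes often stand head to head and share the DNA between their start sites. A few members, such as H1f6 (Hist1h1t, the testis linker histone H1t) and H2bc1 and H2ac1 (Hist1h2ba and Hist1h2aa, the testis histones TH2B and TH2A), are known as germ cell genes.

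The promoters of the histone types carry different short elements, which is why a few are printed here before the peaks over them. RefSeq's promoter table for GRCm38.p6 (mm10) matched 62 of the 69 genes. Those without an entry were H3c7, H2bc4, H3c1, H2af-ps2, H2bc21, H4c14 and H2bu1-ps. Each line runs 5′ to 3′ on the gene's strand, from 180 bases before the TSS to 10 bases from it on. Capitals mark, on either strand, the CCAAT box (CCAAT), the TATA box (TATAAA), the octamer known from H2B promoters (ATTTGCAT), the AAACACA element known from H1 promoters and the GGTCCG element known from H4 promoters. H2bc8 (chr13:23571220-23571409, plus strand) spans the whole distance to its partner H2ac8, and H2ac1 (chr13:23934257-23934446, plus strand) is the testis counterpart. H2bc14 (chr13:21721864-21722053, plus strand) is an H2B gene whose H2A neighbour is the pseudogene H2ac14, which was not used. H1f3 (chr13:23554852-23555041, plus strand) and H1f6 (chr13:23695631-23695820, plus strand) are a somatic and the testis H1 gene. H3c10 (chr13:21717448-21717637, plus strand) stands for H3, and H4c6 (chr13:23551659-23551848, minus strand) and H4f16 (chr6:136804422-136804611, minus strand) for H4.
H2bc8: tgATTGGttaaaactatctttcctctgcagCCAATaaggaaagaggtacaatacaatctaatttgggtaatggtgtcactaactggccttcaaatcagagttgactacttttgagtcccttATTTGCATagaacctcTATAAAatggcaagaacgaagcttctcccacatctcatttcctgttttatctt
H2ac1: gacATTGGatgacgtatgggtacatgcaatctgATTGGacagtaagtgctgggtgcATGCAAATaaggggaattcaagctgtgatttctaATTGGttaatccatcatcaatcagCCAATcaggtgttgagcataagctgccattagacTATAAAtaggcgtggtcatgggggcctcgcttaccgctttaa
H2bc14: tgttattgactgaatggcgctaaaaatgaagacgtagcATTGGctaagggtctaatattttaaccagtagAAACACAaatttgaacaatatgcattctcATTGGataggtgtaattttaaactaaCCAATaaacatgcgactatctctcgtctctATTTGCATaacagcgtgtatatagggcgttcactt
H1f3: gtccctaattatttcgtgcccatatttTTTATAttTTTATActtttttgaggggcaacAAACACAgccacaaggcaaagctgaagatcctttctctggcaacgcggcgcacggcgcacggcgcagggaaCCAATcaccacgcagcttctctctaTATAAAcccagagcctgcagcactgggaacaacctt
H1f6: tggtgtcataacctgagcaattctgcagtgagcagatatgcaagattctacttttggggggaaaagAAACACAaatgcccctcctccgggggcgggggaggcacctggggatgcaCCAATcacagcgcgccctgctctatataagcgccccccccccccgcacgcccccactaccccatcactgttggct
H3c10: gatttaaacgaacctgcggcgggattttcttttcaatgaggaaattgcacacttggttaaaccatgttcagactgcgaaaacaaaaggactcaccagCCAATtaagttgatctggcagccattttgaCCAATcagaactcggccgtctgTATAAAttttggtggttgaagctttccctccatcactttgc
H4c6: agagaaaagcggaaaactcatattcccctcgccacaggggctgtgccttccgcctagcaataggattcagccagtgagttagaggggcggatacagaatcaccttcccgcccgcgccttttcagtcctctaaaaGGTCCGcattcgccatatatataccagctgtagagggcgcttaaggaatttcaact
H4f16: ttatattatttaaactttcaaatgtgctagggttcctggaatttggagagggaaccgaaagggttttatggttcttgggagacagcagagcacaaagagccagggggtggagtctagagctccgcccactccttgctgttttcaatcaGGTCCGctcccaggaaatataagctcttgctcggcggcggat

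Over the full window of the table, 250 bases before to 50 after the start, a CCAAT box was present in all 18 H2A, all 16 H2B, all 10 H3 and all 6 H1 promoters with an entry, but in 3 of 12 H4 promoters. Among all 32851 promoters of the table, 37.4% held it. At least 2 copies were present in 18 of 18 H2A and 16 of 16 H2B promoters, against 11.7% of all promoters. Paired genes share these letters, so the H2A and H2B counts are not separate. GGTCCG was found in 11 of 12 H4 promoters, in 1 of 16 H2B and 1 of 10 H3 promoters, in no H1 or H2A promoter, and in 8.25% of all promoters. AAACACA was found in 5 of 6 H1 promoters, in 2 of 18 H2A and 2 of 16 H2B promoters, in no H3 or H4 promoter, and in 7.18% of all promoters. The octamer was present in 7 of 18 H2A and 7 of 16 H2B promoters, in none of the other types, and in 1.74% of all promoters. TATAAA stood in 35 of the 62 promoters and in 13.6% of all. These are matches of letters, not measured binding sites.

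Lsd1 peaks lay at nearly all of these genes in every library. A gene was counted as having a promoter peak where the centre of a peak fell within 2000 bp of its TSS. By this rule 65 of 69 genes had a peak in myogenic medium (94.2%), where 46.8% of all genes had one. In adipogenic medium it was 63 of 69 (91.3%), with 27% of all genes. In LSD1(OE) cells it was 58 of 69 (84.1%), with 37.3% of all genes. A promoter peak in all 3 libraries was present at 54 of the 69, against 23.5% of all genes. With each peak given only to its nearest TSS, the counts were 36, 41 and 36, and 19 in all 3 libraries, since neighbouring histone genes share peaks. The share of all genes was not counted by this nearest-TSS rule, so no excess over all genes is shown by it. The shares by the 2000 bp rule lay above those of all genes in each library.

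The rule by peak centre leaves out genes that lie inside a very long peak but far from its middle. Counting genes whose TSS lay inside a called peak, a definition added after the data were seen, gave 68, 65 and 67 of 69 genes in the myogenic, adipogenic and LSD1(OE) libraries, with 41.9, 23.4 and 31.9% of all genes. In all 3 libraries the TSS of 65 of 69 genes lay inside a peak, against 19.7% of all genes. H3c4 (Hist1h3d) had no peak centre within 2000 bp in any library, and its TSS lay inside peaks of 10663, 8883 and 16710 bp. The 4 genes that were not inside a peak in all 3 libraries were H1f1 (Hist1h1a), H1f6, H2bc1 and H2ac1.

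**Figure D1:**
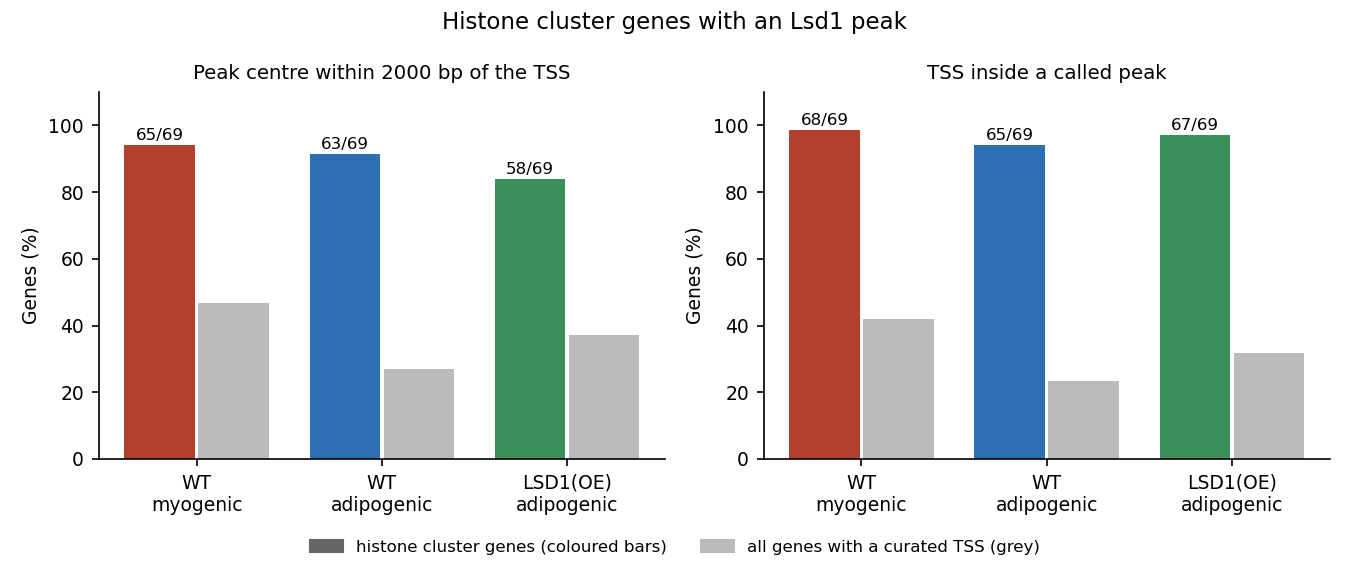
Share of genes with an Lsd1 peak in each library (WT, wild type), in percent, for the 69 histone cluster genes (coloured bars, with the count) and all 26180 genes with a curated TSS (grey bars), by peak centre within 2000 bp of the TSS (left) and by TSS inside a peak (right). The histone gene bars stand at 58 to 68 of 69 genes and the grey bars between 23.4 and 46.8%.

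Between conditions, 4 histone genes had a promoter peak in the myogenic and not in the adipogenic library, H1f6, H2ac1, H2ac8 and H2bc1, where 20.7% of all genes had that pattern. H2ac8 (Hist1h2ae) lay inside the adipogenic peak all the same, 2103 bp from its centre. In LSD1(OE) but not wild-type adipogenic cells a promoter peak was counted at 3 genes, H1f6, H2ac8 and H4c4 (Hist1h4d), against 13.4% of all genes. H4c4 lay inside peaks in every library. Conversely 7 genes, H2ac7, H2ac10, H2ac24, H2bc7, H3c6, H3c11 and H4bc24 (RefSeq's symbol for Hist1h2br, an H2B gene), were counted in the myogenic and the adipogenic wild-type library but not in LSD1(OE) cells, and H4c6 had one in the wild-type adipogenic library alone. All 8 were inside longer LSD1(OE) peaks, of 7025 to 16710 bp, whose centres lay farther off. H4c8 (Hist1h4h), counted in both adipogenic libraries and not in the myogenic one, lay inside a myogenic peak of 6705 bp. The members nearest to the limit of 2000 bp were H1f1 at 1865 and H4c6 at 2096 bp (myogenic), H2bc8 at 1923 and H2ac8 at 2103 bp (adipogenic), and H4c4 at 1927 and H2ac24 at 2009 bp (LSD1(OE)). Of the genes counted in 1 condition and not in another, H1f6, H2bc1 and H2ac1 were the only ones outside a peak body in the library where they were not counted.

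The peaks over histone genes were among the strongest of each library. The score of a peak is the negative log10 of its p-value in the peak caller, multiplied by 10, and it depends on the depth of the ChIP and of its input, so it is read within a library only. In the myogenic library the median score of the strongest promoter peak was 2739 over histone genes and 319 over all genes with a promoter peak. The medians were 1074 and 141 in the adipogenic library, and 2497 and 204 in LSD1(OE) cells. A score of at least 1000 was reached by 57 of 65 histone genes in the myogenic library (8.49% of all genes with a promoter peak), by 34 of 63 in the adipogenic library (1.53%) and by 48 of 58 in the LSD1(OE) library (5.41%). Of the 100 peaks with the highest scores, 17, 10 and 15 lay at histone genes. The caller prints 3100 where the p-value is too small to be held, so members at 3100 are ordered neither among themselves nor against those printed above 3100. Histone peaks made up 40 of 43426, 45 of 18893 and 38 of 33533 peaks and held 0.483, 0.651 and 0.662% of all tags in peaks.

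**Figure D2:**
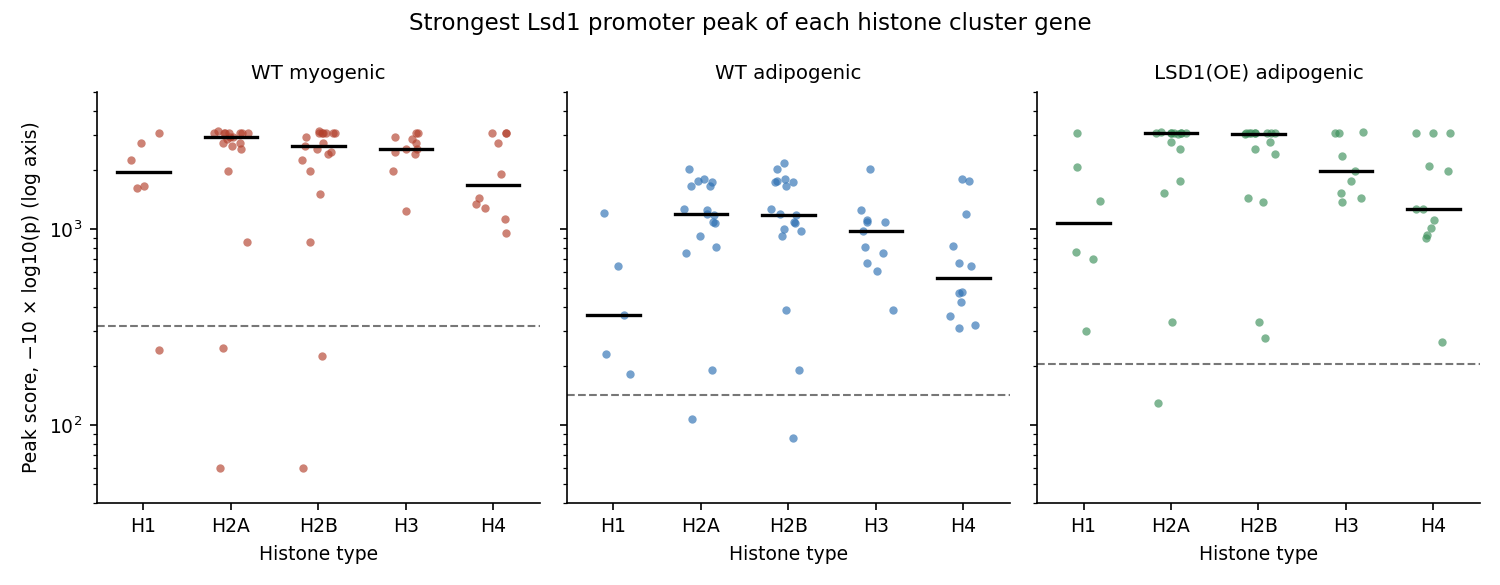
Score of the strongest promoter peak (log axis) of each histone cluster gene by histone type in the 3 libraries, 1 point per gene, with the median of each type as a bar and the median of all genes with a promoter peak as a dashed line. Most points lie above the dashed line, which stands at 319, 141 and 204, and genes that share a peak have the same value.

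They were also long. A strongest promoter peak of at least 3000 bp was present at 53 of 65 histone genes in the myogenic library (4.48% of all genes with a promoter peak), at 36 of 63 in the adipogenic library (3.71%) and at 42 of 58 in LSD1(OE) cells (4.08%). The median length was 3822, 3099 and 4635 bp over histone genes and 1323, 1229 and 1200 bp over all genes with a promoter peak. Many of these peaks ran over several genes, and how much of the length came from this was not tested. Of the peaks with a histone TSS inside, 22 of 37 in the myogenic, 20 of 38 in the adipogenic and 22 of 36 in the LSD1(OE) library covered at least 2 genes (59.5, 52.6 and 61.1%). Among all peaks with any TSS inside the share was 15.1, 13.3 and 13.8%. Tags per kb were higher too. The median tag density, in tags per kb of peak for each 1000000 filtered ChIP tags, was 2.34, 1.68 and 2.02 over histone genes and 1.52, 1.20 and 1.27 over all genes with a promoter peak.

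The longest histone peak was the same stretch in each library, around H2ac8, H2bc8 (Hist1h2bg), H2bc7 (Hist1h2bf), H2ac7 (Hist1h2ad) and H3c4. It measured 10663 bp with 1271 tags in the myogenic library, 8883 bp with 991 tags in the adipogenic library and 16710 bp with 2077 tags in LSD1(OE) cells, where it was the longest peak of the library and also took in H3c6 (Hist1h3e). At H3c6 the wild-type libraries had a peak of its own, of 3392 bp with 353 tags and of 3141 bp with 372 tags. Over the 60 kb from the start of H4c8, which hold 15 of the genes, called peaks covered 51.8 kb in the myogenic, 37.5 kb in the adipogenic and 53.7 kb in the LSD1(OE) library.

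**Figure D3:**
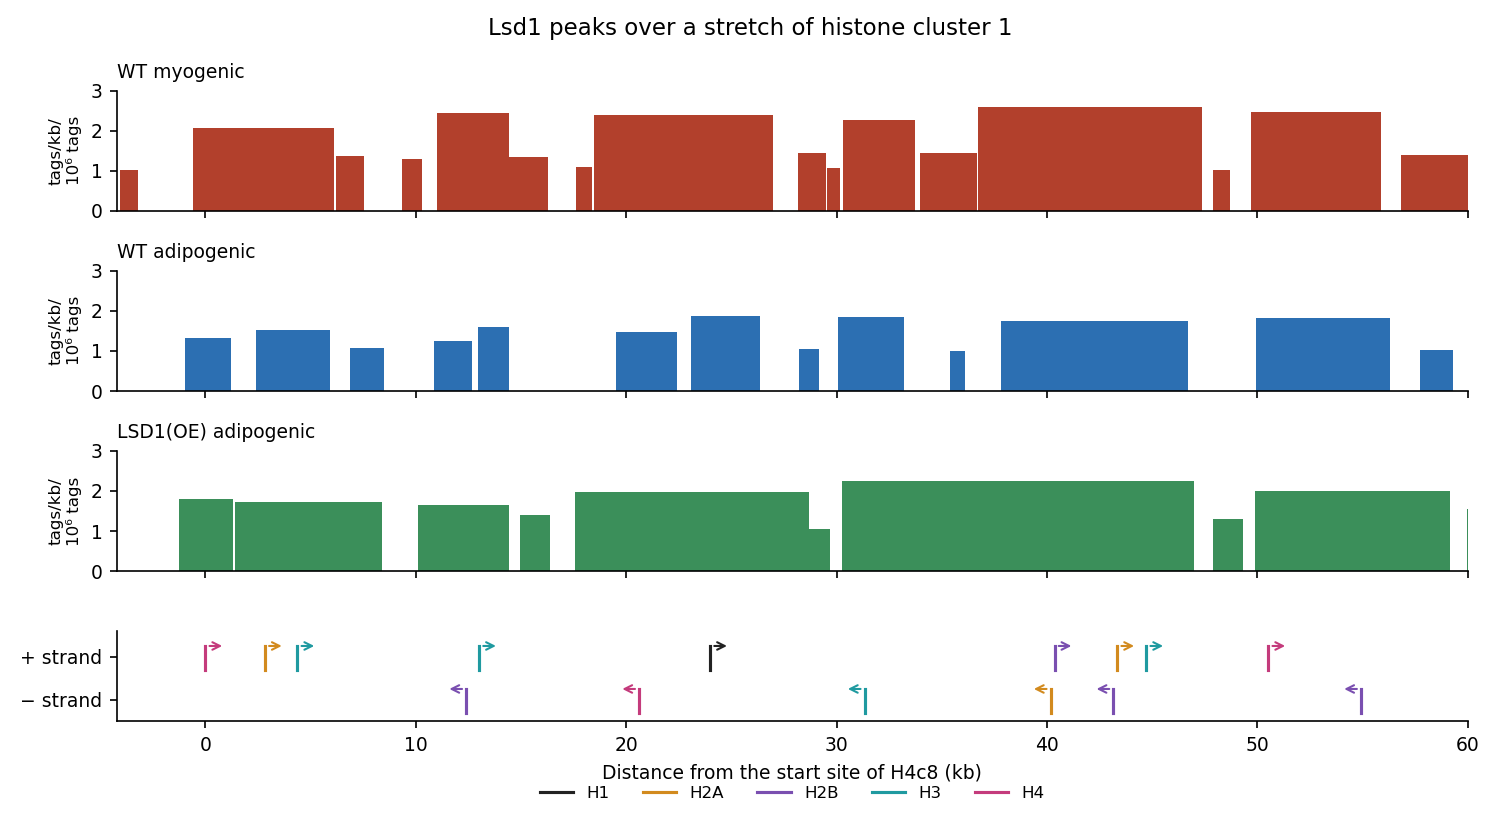
Lsd1 peaks of the 3 libraries over a stretch of cluster 1, by distance from the start site of H4c8 in kb, with the tag density of each peak as its height (tags per kb for each 1000000 filtered tags) and the start sites of 15 histone genes as arrows coloured by type. Every start site lies under a peak in all 3 tracks, and the LSD1(OE) peaks are the longest, up to 16710 bp.

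The linker histone genes, whose products bind DNA at the edge of the nucleosome, were the type with the lowest median score in both adipogenic libraries, 362 in wild-type and 1074 in LSD1(OE) cells, and a median of 1954 in the myogenic library, where the H4 median was lower. H1f3 (Hist1h1d) had the highest scores of the 6, 3100, 1209 and 3100 in the myogenic, adipogenic and LSD1(OE) libraries, from 940, 386 and 1214 tags. Its myogenic and LSD1(OE) peaks, of 8507 and 11136 bp, also covered the start of H4c6. In the adipogenic library H1f3 had a peak of 3237 bp and H4c6 a separate one of 277 tags, so these tags are not like for like. H1f4 (Hist1h1e) had scores of 2248, 649 and 2063, H1f2 (Hist1h1c) of 1625, 362 and 1381, and H1f5 (Hist1h1b) of 1660, 230 and 767. H1f3 ranked first of the 6 genes in each library. H1f1 shared a myogenic peak of score 2739 with H3c1 (Hist1h3a) and H4c1 (Hist1h4a), and had separate peaks of score 182 in the adipogenic and 704 in the LSD1(OE) library. Its TSS lay outside the adipogenic peak, 1073 bp from the centre. H1f6, the testis gene, had the weakest signal of the 6, with 81 tags (95% Poisson interval 64.3 to 101) and a score of 240 in the myogenic library, no promoter peak in the adipogenic library, and 102 tags (83.2 to 124) and a score of 301 in LSD1(OE) cells. Its promoter holds a CCAAT box, as in all 6 H1 genes, and the AAACACA element, as in 5 of the 6 (not H1f1), but no TATAAA, which 4 of the 6 hold. Its neighbour H4c3 (Hist1h4c) had peaks of score 1284, 312 and 1017.

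For H2A and H2B, whose proteins enter the nucleosome as dimers, 13 pairs stood head to head with start sites 164 to 281 bp apart. In 12 of the 13, both starts lay inside a peak in all 3 libraries. The exception was the testis pair H2bc1 and H2ac1, named here after its values were seen. It had a peak of 33 tags (22.7 to 46.3) and score 60.3 in the myogenic library, 686 bp long, which held the start of H2bc1 only, and the nearest peak centres lay 169415 bp from H2bc1 in the adipogenic and 56930 bp in the LSD1(OE) library. The promoter of H2ac1 printed above carries CCAAT boxes, as do those of all other H2A genes with an entry, and an octamer and a TATA box, which 7 and 11 of the 18 H2A promoters hold. The somatic pair H2ac6 and H2bc4 (Hist1h2ac and Hist1h2bc) had a score of 3169 from 531 tags in the myogenic library, with 1177 from 378 tags in the adipogenic and 2768 from 555 tags in the LSD1(OE) library. H2bc6 (Hist1h2be) has several start sites. At one of them it shares a peak with H4c4 in all 3 libraries. The scores there were 3137 from 702 tags in the myogenic library and 3100 from 1026 tags in LSD1(OE) cells. In the adipogenic library the score was 2160 from 743 tags, the highest histone score of that library. At another, near H1f4, the myogenic peak had a score of 2248, and this is the peak that the rule by centre gave H2bc6 in that library. H2bc13 and H2ac13 (Hist1h2bl and Hist1h2ai) shared 1 peak with H3c10 (Hist1h3h), of score 3100 with 575 tags, 2015 with 565 tags and 3100 with 748 tags. Median scores were 2960, 1190 and 3077 for H2A and 2636, 1184 and 3068 for H2B genes.

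The H3 genes encode the histone whose tail is the substrate of Lsd1. All 12 had their TSS inside a peak in all 3 libraries, and 11, 11 and 9 had a promoter peak by centre. In the myogenic library their scores ran from 1239 at H3c11 (Hist1h3i) to 3100 at H3c10 and H3c14 (Hist2h3c1). H3c15 (Hist2h3c2) had scores of 2963, 1080 and 1524, H3c13 (Hist2h3b) of 2481, 981 and 1374, and H3c14 of 3100, 753 and 1761. H3c2 (Hist1h3b), in 1 peak with H2ac4, had 2867, 1249 and 3130. H3c3 (Hist1h3c) had 2567, 1088 and 3100, and H3c8 (Hist1h3g) 2547, 809 and 2350. At H3c7 (Hist1h3f) the scores were 2419, 386 and 1432, at H3c1 2739, 669 and 1982, and at H3c6 1987 and 1113 in the wild-type libraries.

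The H4 genes had median scores of 1671, 563 and 1261, and their TSSs lay inside a peak in all 3 libraries in 13 of 13. H4f16, the lone gene of cluster 4, had scores of 1130, 821 and 926 from 365, 335 and 322 tags in peaks of 3024, 2260 and 2447 bp. No other cluster gene lies on chromosome 6, so it shared this peak with none of them. H4c14 (Hist2h4) had scores of 1901, 359 and 1257, and H4c12 (Hist1h4k) of 959, 426 and 1111. Cluster 3 stood lowest among the arrays. Its H2bu2 (Hist3h2ba) had scores of 226, 86.1 and 277 from 65, 63 and 84 tags, and H2aw (Hist3h2a) and H2bu1-ps shared a peak of score 854, 191 and 335 from 165, 120 and 145 tags. The pseudogene H2af-ps2, far from the rest of cluster 1 and named after its values were seen, had 247, 108 and 130 from 82, 76 and 60 tags. Median scores of cluster 1 were 2739, 1088 and 2914, and of cluster 2 2750, 1030 and 1643.

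Tag density was lower in the adipogenic than in the myogenic library at every histone gene with a promoter peak in both, 61 of 61, but so it was at 96.1% of all such genes. The median log2 ratio was -0.51 over histone genes and -0.46 over all genes, so the histone genes followed the shift of the whole library. The lowest ratios were those of H1f1 (0.544, 95% interval 0.443 to 0.664), H1f2 (0.557, 0.459 to 0.674), H2ac22 and H2bc22 (0.595, 0.517 to 0.685) and H4c3 (0.610, 0.494 to 0.750). These ratios compare peaks called separately in each library. For H1f1 a myogenic peak of 5037 bp shared with H3c1 and H4c1 stood against an adipogenic peak of 1621 bp of its own, and over their merged domain the densities were 2.18 and 1.41. The highest were those of H4c12 (0.908, 0.743 to 1.11), H2bc14 (0.898, 0.761 to 1.06), H4f16 (0.887, 0.762 to 1.03) and the peak of H2ac20, H2ac21 and H2bc21 (0.857, 0.748 to 0.982). The 61 genes shared 36 pairs of peaks. The interval lay below 1 in 56 of 61 genes, and H4c12, H2bc14 and H4f16 were among the 5 where it held 1. This count was not made over all genes. Their peaks held fewer tags, medians of 97 (adipogenic) and 96 (myogenic) against 378 and 430 over histone genes, and so have wider intervals.

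Between the adipogenic libraries, density was higher in LSD1(OE) than in wild-type cells at 55 of 55 histone genes, against 74.1% of all genes with a promoter peak in both, and the median log2 ratios were 0.29 and 0.16. Among genes with a myogenic score of at least 1000, density was higher at 81.3%, with a median of 0.29 over the 49 histone genes and 0.20 over the 958 other genes. The 55 genes shared 35 pairs of peaks, and the counting interval lay above 1 in 33 of 55. This count was not made over all genes. Their peaks held fewer tags, medians of 97 (wild-type adipogenic) and 87 (LSD1(OE)) against 378 and 531 over histone genes, and so have wider intervals. The ratio was 1.44 (1.23 to 1.69) at H3c1 and H4c1, 1.36 (1.08 to 1.72) at H1f1, 1.35 (1.20 to 1.51) at H3c2 and 1.35 (1.12 to 1.63) at H1f2. At H3c7 and H2bc9 (1.02, 0.846 to 1.24), H4f16 (1.03, 0.880 to 1.20), H3c13 (1.04, 0.892 to 1.21) and H1f3 (1.06, 0.943 to 1.19) the interval held 1. H2bu2 had the highest log2 ratio, 0.58, from 84 and 63 tags. All 55 density ratios lay above 1, and the median of all genes was itself above 1 between these libraries. Density divides by the length of peaks called separately, at H1f3 11136 bp in LSD1(OE) and 3237 bp in wild-type cells. Not divided by length, the ratio was 3.642 (3.245 to 4.095) at H1f3 and 2.94 (2.434 to 3.566) at H3c7 and H2bc9. It was 1.203 (1.032 to 1.402) at H3c13 and 1.113 (0.952 to 1.301) at H4f16. By this measure 52 of the 55 were higher and 3 lower, with 66.9% of all genes higher.

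Against the myogenic library, LSD1(OE) density was lower at 49 of 56 histone genes, against 85.3% of all genes, with median log2 ratios of -0.20 and -0.30. This depended on dividing by length. In tags of the strongest promoter peak for each 1000000 filtered tags, not divided by its length, 30 of the 56 were lower and 26 higher, against 77.9% of all genes lower, with medians of -0.13 and -0.50. H3c7 and H2bc9 were at 0.671 (0.581 to 0.774) of the myogenic density, and H3c13 and H2bc18 at 0.734 (0.633 to 0.851). H3c10 (0.984, 0.882 to 1.10), H3c1 (1.01, 0.881 to 1.16) and H1f6 (1.02, 0.756 to 1.39) did not differ from it beyond counting error. H2bc14 (1.17, 1.00 to 1.37) and H4c12 (1.35, 1.11 to 1.64) lay above it. At H4c12 the LSD1(OE) peak was 1536 bp long and the myogenic peak 2975 bp. Not divided by length, H4c12 lay below the myogenic value (0.6981, 0.5748 to 0.847), and so did H3c1 (0.6218, 0.5428 to 0.7119). H2bc14 stayed above it (1.192, 1.019 to 1.396), and H3c10 and H1f6 still did not differ beyond counting error. The adipogenic, LSD1(OE) and myogenic comparisons share libraries, so they are not separate lines of evidence.

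**Figure D4:**
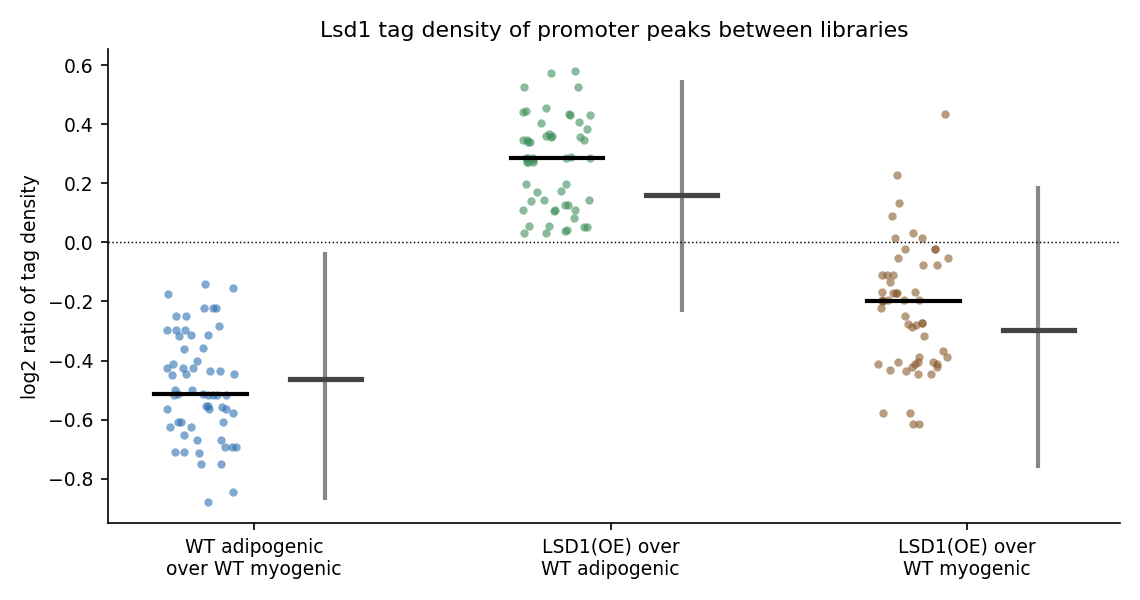
Log2 ratio of tag density between pairs of libraries for each histone cluster gene with a promoter peak in both (coloured points, black bar the median), beside the median (dark bar) and the 5th to 95th percentile (grey line) of all genes with a promoter peak in both. All points lie below 0 in the first comparison and above 0 in the second, and the medians of all genes, -0.46 and 0.16, lie on the same sides.

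Because neighbouring genes share peaks, the peaks of the 3 libraries over or near histone genes were also merged where they overlapped, which gave 30 domains, 28 of them with a peak in every library. Of the domains 21 held at least 2 histone genes, and the domain from H3c6 to H3c4 held the most, 6. Tags in peaks for each 1000000 filtered tags were lower in the adipogenic than in the myogenic library in 28 of 28 domains, with a median log2 ratio of -0.72. The strongest promoter peak was lower by this measure at 89.5% of all genes with a peak in both, with a median of -0.76, which is the shift of the whole library. Domain tags were higher in LSD1(OE) than in wild-type adipogenic cells in 27 of 28, with a median of 0.65, where 66.9% of all genes were higher, with a median of 0.27. The exception was the domain of H2af-ps2, at 1.19 in wild-type adipogenic and 1.09 in LSD1(OE) cells. The largest domain value was that of H3c6 to H3c4, 39.8 such tags in the myogenic, 22.0 in the adipogenic and 38.7 in the LSD1(OE) library. This measure moved more than density between the adipogenic libraries, and LSD1(OE) peaks at histone genes were also longer. Domain density was higher in LSD1(OE) than in wild-type adipogenic cells in 27 of 28 domains, with a median log2 ratio of 0.30. The domain of H3c15 and H2ac19 was the lower one, at 1.671 in LSD1(OE) and 1.679 in wild-type adipogenic cells. Density of the strongest promoter peak was higher at 74.1% of all genes with a peak in both.

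**Figure D5:**
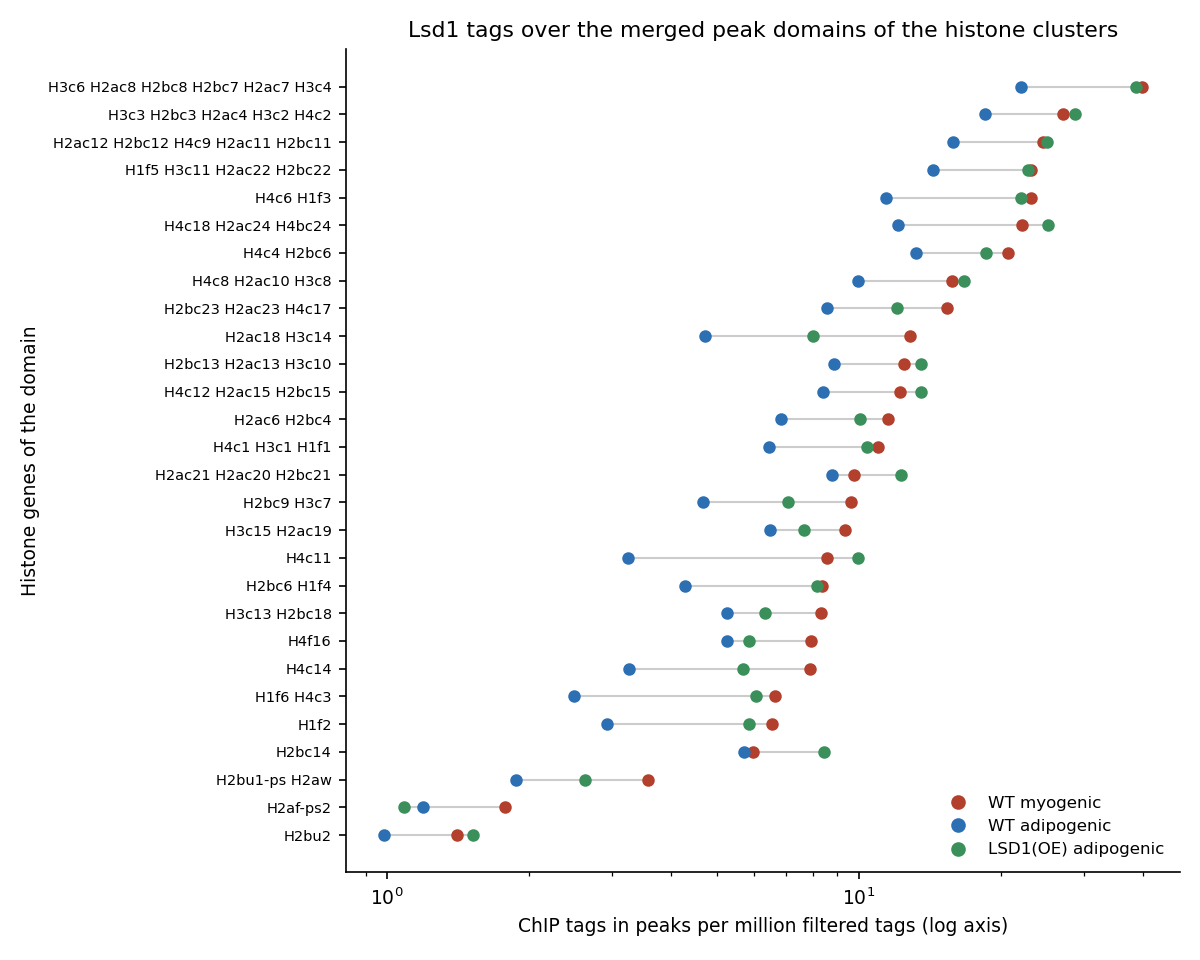
ChIP tags in peaks for each 1000000 filtered tags (log axis) over the 28 merged domains with a peak in every library, 1 row per domain, named by its histone genes and ordered by the myogenic value. The adipogenic point lies left of the myogenic point in every row, and the LSD1(OE) point lies right of the wild-type adipogenic point in every row but that of H2af-ps2.

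Near-identical copies limit how single genes can be read. Within 1000 bp of the TSS, a median of 81.2% of 50-base words of the assembly were unique over the 71 start sites of the histone genes. At H2ac23, H2bc23, H2ac24 and H4bc24 none were, at H4c17 and H4c18 6.85 and 7.85% were, and at H3c15 and H3c14 21.9 and 23.4% were, yet peaks were called over all 8. How reads with several matches were placed for peak calling is not stated, so the values of these 8 genes may hold reads of other copies. The paper mentions uniquely mapping locations only for its intensity profiles. The same limit applies in part to other histone genes, such as H2ac18 and H2ac19 at 44.5 and 48.4%. H1f1, H1f5 and H1f6 were at 100%, and the start site of H2bc6 with the peaks described above at 86.1%. CpG dinucleotides within 500 bp of the TSS stood at a median of 0.88 of the number the base composition gives, against 0.54 over all genes, and their part in the peaks was not tested.

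The arrays of clusters 2 and 3 held no other genes with curated transcripts. Those of cluster 1 held 10, of which 3, 2 and 2 had a promoter peak in the myogenic, adipogenic and LSD1(OE) libraries. With 10 genes these counts cannot be set apart from the 46.8, 27 and 37.3% of all genes. Zfp184, a zinc finger gene, had scores of 575, 243 and 276, and Hfe, the hemochromatosis gene, of 224, 101 and 402. The 10 genes include Prss16 and the transporter genes Slc17a1 to Slc17a4, which had no promoter peak in any library. These genes were named after their values were seen.

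Genes that work with the cluster genes also had peaks in many cases, with median scores below those of the arrays. Of 14 genes listed as replication-independent histones, 11, 8 and 11 had a promoter peak, with median scores of 563, 172 and 116. The strongest were H1f0, the linker histone of resting cells, at 2878, 623 and 701, and H1f10 at 1149, 365 and 671. Of 24 genes for the transcription and mRNA processing of histone genes, 22, 12 and 18 had one, with median scores of 327, 136 and 141. Of 16 histone chaperone genes, 15, 9 and 9 had one, with medians of 288, 162 and 208, and Asf1b, which hands H3 and H4 to assembly factors, was the strongest at 1561, 842 and 680. Median scores of all genes with a promoter peak were 319, 141 and 204. In the myogenic library 11 of 14, 22 of 24 and 15 of 16 genes of these lists had a promoter peak. This stood beside 65 of 69 cluster genes and 46.8% of all genes, so the last 2 lists had shares like that of the cluster genes. In the adipogenic library it was 8 of 14, 12 of 24 and 9 of 16, beside 63 of 69 cluster genes and 27% of all genes. In LSD1(OE) cells it was 11 of 14, 18 of 24 and 9 of 16, beside 58 of 69 and 37.3%.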

How the data were processed

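Lsd1 ChIP-seq peak lists of 3 conditions, 1 ChIP and 1 input library each, were used, and samples were grouped by their titles. Single reads of 50 bp were aligned by the authors to mm10 with Bowtie (Bowtie2 in the submitters' notes). Peaks were called per ChIP library against its own input with MACS 1.4.2 (version 1.41 in the submitters' notes). The p cut-off was 1e-05, and the smaller library was scaled up to the larger. The deposited tables give for each peak the count of ChIP tags, a score (negative log10 of p, times 10), a fold enrichment, which was not compared between libraries, and the FDR in percent, at most 0.73%. The deposited BED files list the same peaks and were not used further. TSSs came from curated RefSeq transcripts of GRCm38.p6, 31647 TSSs of 26180 genes. Density was tags per kb of peak for each 1000000 filtered ChIP tags, ratios have exact conditional binomial and tags exact Poisson 95% intervals. No test between conditions was made, since there is no replicate, and the precision rests on the tags of each peak, 27, 35 and 30 at least in the 3 libraries. The genes, lists and thresholds were chosen with earlier results of these data known. Genes are named by a rule: all H1 and H3 genes, clusters 3 and 4, the 5 highest scores per library with ties, genes with a promoter peak in 1 adipogenic library only or in wild-type adipogenic but not myogenic cells, those nearest the window's limit, the 5 lowest and 5 highest adipogenic over myogenic ratios, and the 3 highest of the other lists. Other windows, assignments, scores, peak numbers, scalings and measures were tried as alternatives. Peak assignment and ratios were checked on simulated data. Python 3.11.15, NumPy 2.4.6, pandas 2.3.3, SciPy 1.17.1, Numba 0.67.0 and Matplotlib 3.10.9 were used. Reads and expression data were not analysed here.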

Additional observations from a re-analysis of the deposited data

How the results depend on the processing

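No paired analysis was possible because each condition has 1 library and the labels give no replicate numbers. Assigning each peak to its nearest TSS only lowered the histone genes with a promoter peak to 36, 41 and 36 in the myogenic, adipogenic and LSD1(OE) libraries and to 19 in all 3, since a peak over several genes then counts for 1. Genes with a myogenic and no adipogenic promoter peak were then 7, and those in LSD1(OE) but not wild-type adipogenic cells 11. A window of 1000 bp gave 34 genes in all 3 libraries and 12 and 8 in these patterns, and a window of 5000 bp, or peaks that overlapped the window, gave 2 and 0. The first pattern also fell to 2 with equal numbers of the strongest peaks and with scores not scaled up, and the second to 1 with the summit in place of the centre. The shares of all genes were not counted under these alternatives. Without division by length the median log2 ratio was -0.74 for adipogenic over myogenic and 0.76 for LSD1(OE) over wild-type adipogenic cells. The other 72 values moved by less than 1.5 times, or by less than their spread, and none reversed. With only genes of at least 90% unique 50-base words, added after the data were seen, the median log2 ratios were -0.57, 0.32 and -0.27. A difference that depends on tags below the weakest called peak is not visible in these lists.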

Other observations

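The stretches of cluster 1 also held Lsd1 peaks away from histone genes. Between chr13:21715711 and chr13:22043658, 40 of 53 myogenic, 7 of 23 adipogenic and 45 of 57 LSD1(OE) peaks lay neither near nor over a histone TSS. Their median scores were 85.6, 116 and 104, against 1982, 766 and 2815 for the histone peaks of that stretch. The same stretch held 31 tRNA genes, of which 6, 2 and 6 overlapped a peak, where 167, 95 and 155 of the 403 tRNA genes on the assembled chromosomes did (41.4, 23.6 and 38.5%).

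Between the cluster 1 arrays lay 1487 kb without a histone gene, with 45 other genes and 16, 6 and 23 peaks in the myogenic, adipogenic and LSD1(OE) libraries. None of these scored above 647, 384 and 728 in the respective library, against medians of 2739, 1074 and 2497 over histone genes with a promoter peak.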
